A study of Mus musculus with 10 samples.

Results

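Chemokine ligands are the small secreted proteins, a few of them tethered to the cell surface, that guide migrating cells. Their transcripts were followed in luminal and basal cells of the mouse mammary gland. The members were all genes of the count table whose mouse symbol is Ccl, Cxcl, Cx3cl or Xcl followed by a number and, at most, a letter, which gave 40 of 24594 genes (25 CC, 13 CXC, 1 CX3C and 1 XC ligand). The samples were 5 luminal and 5 basal bulk RNA-seq libraries of wild-type C57BL/6J mice, untreated as far as the labels say, with virgin glands as the stated tissue. The labels give no age, and mice in the experiments were 12 to 20 weeks old by the methods. Glands had been dissociated with collagenase, hyaluronidase, trypsin and dispase, and the cells were sorted by their surface EpCAM and CD49f. The sorting methods also list a lineage stain for CD45, CD31 and TER-119, proteins of leukocytes, endothelial cells and red blood cells, by which such cells can be gated out, whereas the labels of these libraries name EpCAM and CD49f alone. Luminal cells line the duct and include the cells that make milk and those that sense hormones, and basal cells are the outer, contractile layer. The design text of the series sets luminal against basal cells to find genes that differ, and here the question was which chemokine ligands each of them transcribes.

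Chemokines signal through G protein-coupled receptors named after the ligand class (CCR, CXCR, CX3CR and XCR), and several atypical receptors bind ligands without that signal and clear them. Some ligands are made constitutively by epithelium or stroma, such as Cxcl12 and Cxcl14, whereas others are induced by inflammatory signals through NF-kB, such as Cxcl1 and Cxcl2, or by interferon, such as Cxcl10. In the mammary gland, chemokines are known for placing macrophages, lymphocytes and eosinophils around the ducts.

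Library totals ranged from 13203146 to 17998165 counts, with 16840 to 17842 genes detected. Values are given in CPM (counts scaled to a common depth, here on the TMM-scaled library total), in the order of replicates 1 to 5. A count of 1 was worth 0.0527 to 0.0774 CPM, and 3 counts, the upper limit that a count of 0 allows, 0.158 to 0.232 CPM, for counting error only. In all 10 libraries the title contradicts the cell type label. The label was followed, and all 9 luminal markers (such as Krt8 and Elf5) and all 7 basal markers (such as Krt5 and Acta2) were called in its direction, where 33.6% of all genes were called towards luminal and 31.2% towards basal cells by edgeR. In bulk RNA, fewer cells that express a gene and less RNA per cell cannot be told apart.

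The ligand transcripts of basal cells were mostly Cxcl14, Cx3cl1, Cxcl16 and Cxcl12, and those of luminal cells mostly Cxcl15, Cx3cl1, Cxcl16 and Cxcl17. Of the 40 ligands, 21 passed the filter on low counts and were tested, 18 were detected but not tested, and Xcl1 had no count in any library. Among the 21, 8 were called higher in luminal cells (Cxcl15, Cxcl17, Ccl5, Ccl6, Cxcl5, Ccl9, Ccl8 and Ccl25) and 6 higher in basal cells (Cxcl14, Cxcl12, Ccl17, Cx3cl1, Cxcl10 and Cxcl16) by the quasi-likelihood test of edgeR at an adjusted p under 0.05. These 14 are 66.7% of the ligands tested, against 64.8% of all 14609 genes tested, so the share of ligands that differed was close to the background. Over all genes, 33.6% were called towards luminal and 31.2% towards basal cells. Among the 21 ligands tested, the groups did not overlap for 9, 4 higher in luminal and 5 higher in basal libraries, where 50.1% of all genes tested did not overlap (24.7% with luminal and 25.3% with basal higher). Among the ligands, 11 of 21 were called and at least 4-fold apart, against 18.5% of all genes. That share is no measure of the list, since 8 of the 11 had fewer than 10 counts in some library and could pass the filter on low counts through the cell type where they were high, and the genes were not matched for level.

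**Figure D1:**
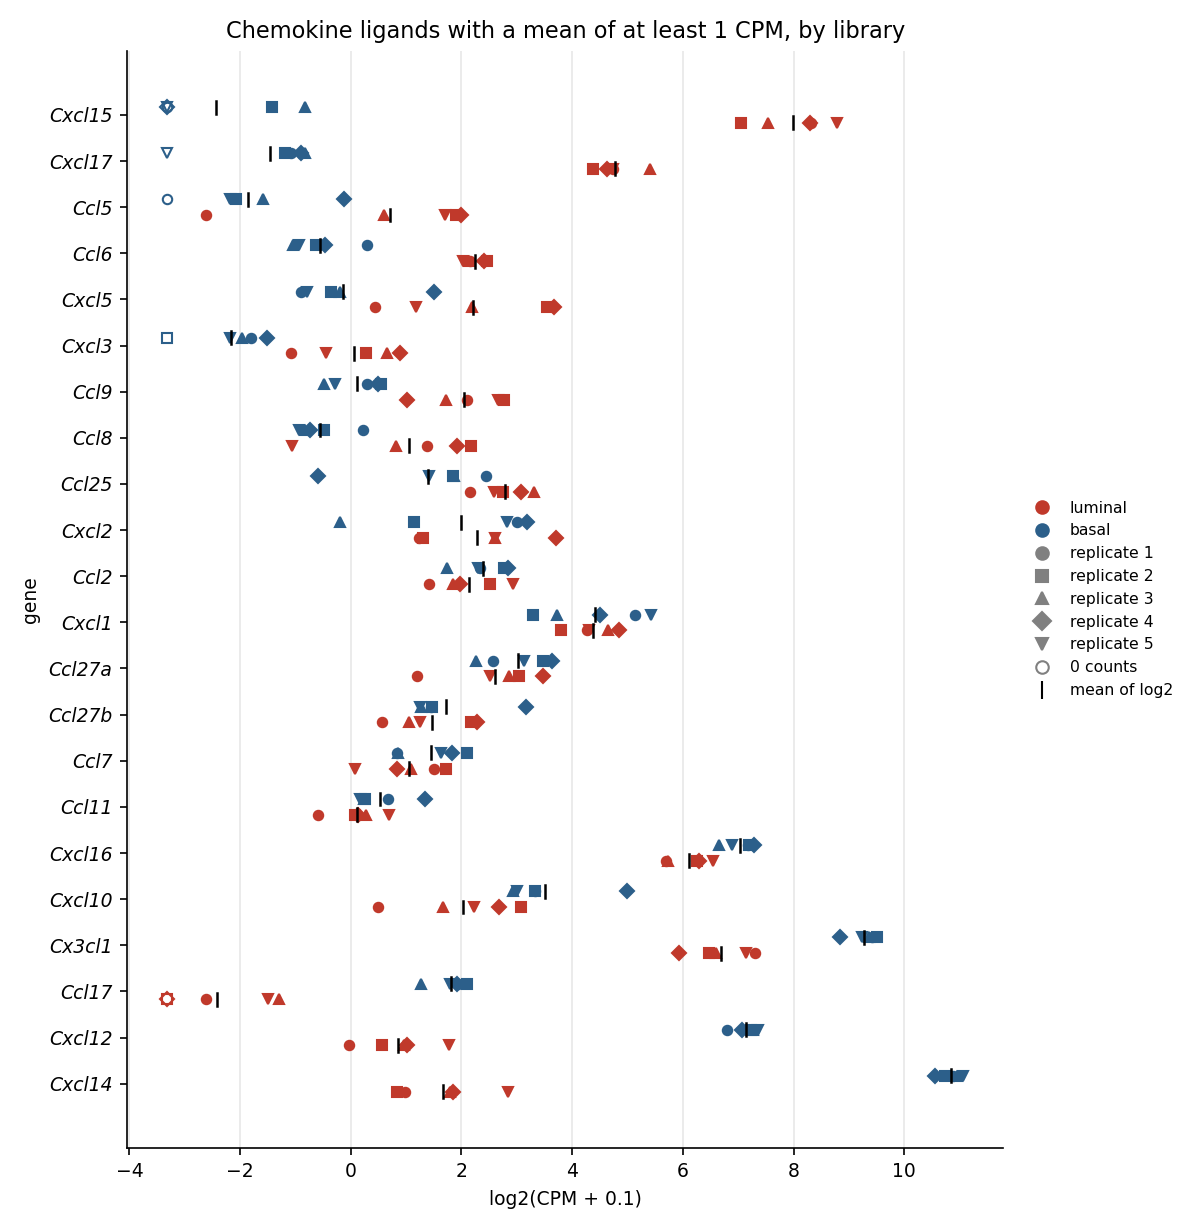
Levels of the 22 chemokine ligands with a mean of at least 1 CPM, as log2(CPM + 0.1), in 5 luminal (red) and 5 basal (blue) libraries. Marker shape gives the replicate, an open marker a library with 0 counts and the bar the mean of the log2 values. Cxcl15 and Cxcl17 at the top lie far to the right in luminal libraries, Cxcl12 and Cxcl14 at the bottom far to the right in basal libraries, and the symbols of Cxcl1, Cxcl2, Ccl2 and Ccl27a intermingle.

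The base sequences before the start sites of ligands with a high level in a cell type are shown to let the reader set them beside their levels. A promoter window (250 bases before to 50 bases after a start site, RefSeq, GRCm38.p6) was given for 28 of the 40 ligands, in 34 windows. The lines below are the 250 bases before the start site of the ligand with the highest luminal level, Cxcl15, and of the basal-high ligands Cxcl12 and Cx3cl1, each read 5′ to 3′ on the gene's strand. Capitals mark matches, on either strand, to the TATA box in its simplest form, TATAAA. They also mark matches to the core of the GC box, which is GGGCGG and is bound by factors of the Sp family, and the run of capitals near the end of Cxcl12 is a pair of overlapping matches.
Cxcl15, chr5:90794284-90794533 (+ strand): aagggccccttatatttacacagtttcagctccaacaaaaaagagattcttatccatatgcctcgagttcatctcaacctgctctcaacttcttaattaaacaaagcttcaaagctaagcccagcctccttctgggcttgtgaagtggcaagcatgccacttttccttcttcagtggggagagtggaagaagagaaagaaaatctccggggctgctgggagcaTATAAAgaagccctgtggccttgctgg
Cxcl12, chr6:117168285-117168534 (+ strand): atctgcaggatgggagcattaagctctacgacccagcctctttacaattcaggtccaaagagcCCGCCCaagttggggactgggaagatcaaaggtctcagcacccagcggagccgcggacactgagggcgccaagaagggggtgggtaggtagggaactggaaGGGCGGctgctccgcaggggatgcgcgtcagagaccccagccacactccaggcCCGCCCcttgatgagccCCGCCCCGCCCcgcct
Cx3cl1, chr8:94771930-94772179 (+ strand): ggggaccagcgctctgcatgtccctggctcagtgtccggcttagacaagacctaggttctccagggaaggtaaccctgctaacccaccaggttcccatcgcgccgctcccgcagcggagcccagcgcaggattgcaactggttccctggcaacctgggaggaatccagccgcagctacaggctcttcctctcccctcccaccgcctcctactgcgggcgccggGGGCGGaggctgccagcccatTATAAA
The Cxcl15 window held a TATA box 27 bases before the start site, no GC box and 3 CpG dinucleotides. The Cxcl12 window held 5 GC boxes, no TATA box and 20 CpG, and the Cx3cl1 window held 1 match to each and 19 CpG. Some windows of other called ligands differed from these. The windows of the basal-high Ccl17 (3 CpG) and Cxcl10 (10 CpG) held no GC box. A window of the luminal-high Ccl25 held 52 CpG and no TATA box. Another Ccl25 window, which lies within the gene, held 1 CpG and a TATA box 16 bases before the start site. Among all 32851 promoters of the same length, 13.6% held a TATA box and 35.7% a GC box, and the median was 7 CpG with quartiles of 3 and 20. The Cxcl14 window, with 22 CpG, lies within a longer RefSeq model of the gene and is not shown. The Ccl17 window also lies within a longer model of its gene. A match is a run of letters and not a bound site.

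Cxcl14 (Entrez 57266, chr13:56288643-56296811), a ligand that many epithelia make constitutively, had the highest level of all ligands and was a basal transcript. It was at 1.88, 1.69, 3.37, 3.51 and 7.04 CPM in luminal libraries and at 1899, 1712, 1993, 1497 and 2151 CPM in basal libraries. Every basal library was far above every luminal library. The means were 3.50 ± 2.15 CPM in luminal and 1850.3 ± 253 CPM in basal cells (SD, n = 5 each), a log2 fold change of -9.05 ± 0.41 (SE, adjusted p = 3.67e-10), or 530.3-fold. Cxcl14 ranked 42nd of 14609 genes by mean level in basal cells and 22nd by size of a change towards basal cells. It made up 65.2% ± 3.11 of the summed ligand CPM in basal and 0.587% ± 0.237 in luminal libraries (SD, n = 5 each). The 7 basal markers summed to 29.5, 36.2, 28.0, 46.6 and 79.5 CPM in luminal libraries, and to 12933 CPM on average in basal libraries. Replicate 5 was the highest luminal library for this sum, for Cxcl14 and for Cxcl12 (below). The part of basal RNA in these luminal values was not tested.

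Cxcl12 (Entrez 20315, chr6:117168535-117181368), the ligand of Cxcr4 that holds stem cells and leukocytes in their niches, followed the same pattern at a lower level. Luminal libraries held 0.876, 1.37, 1.84, 1.91 and 3.30 CPM, and basal libraries 112, 151, 153, 133 and 165 CPM. The lowest basal library was above the highest luminal library by more than an order of magnitude. This was a log2 fold change of -6.26 ± 0.29 (SE; adjusted p = 3.67e-10), from means of 1.86 ± 0.906 CPM in luminal and 143 ± 20.6 CPM in basal cells (SD, n = 5 each), or 76.8-fold. Fibroblasts and pericytes are known sources of this ligand. Of 10 fibroblast and pericyte markers, all tested, 5 were called higher in basal and 1, Dcn, higher in luminal libraries (60% called, against 64.8% of all genes), and their summed level ran from 27.9 to 118 CPM in luminal and from 88.4 to 143 CPM in basal libraries. The mean of that sum was 62.6 ± 34.6 CPM in luminal and 115 ± 19.7 CPM in basal libraries (SD, n = 5 each). No marker of this list was at 0 in a whole group. Their part in the Cxcl12 difference was not tested.

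Cx3cl1 (Entrez 20312, chr8:94772180-94782427), or fractalkine, a membrane-anchored ligand on a mucin stalk that is released by the proteases Adam10 and Adam17, was transcribed in both cell types. It was at 158, 88.3, 96.9, 60.6 and 141 CPM in luminal libraries and at 681, 731, 656, 461 and 601 CPM in basal libraries. Basal libraries were higher without overlap, with replicate 4 the lowest in each group. The difference was -2.52 ± 0.24 on the log2 scale (SE, adjusted p = 5.84e-07), from means of 109 ± 39.7 CPM in luminal and 626 ± 103 CPM in basal cells (SD, n = 5 each), or 5.75-fold. Its share of the summed ligand CPM was 19.3% ± 5.82 in luminal and 22.1% ± 2.83 in basal libraries (SD, n = 5 each).

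Cxcl16 (Entrez 66102, chr11:70454389-70459984), the other membrane-anchored ligand, which binds Cxcr6, was at 52.0, 76.6, 53.2, 78.3 and 93.3 CPM in luminal libraries and at 144, 146, 101, 155 and 118 CPM in basal libraries. The groups were close but did not overlap. Cxcl16 differed by a log2 fold change of -0.91 ± 0.18 (SE, adjusted p = 0.000578), or 1.88-fold, the smallest difference among the 14 ligands called. The exons of Cxcl16 share 552 bases with Zmynd15 on the opposite strand, and the kit named in the labels does not mark strand, so reads of that stretch cannot be assigned to either gene.

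Ccl17, a ligand of Ccr4, was the only CC ligand called higher in basal cells by the main test. It stood at 0.125 ± 0.146 CPM in luminal and 3.45 ± 0.695 CPM in basal libraries (SD, n = 5 each), with 0 to 5 counts in each luminal and 30 to 61 counts in each basal library. Its log2 fold change of -4.70 ± 0.65 (SE, adjusted p = 2.1e-05) became -5.34 without luminal replicate 3, with the fold 1.55 times as large. Ccl17 lies 27.0 kb from Cx3cl1 on chromosome 8, and on the other side, 20.8 kb away, lies Ccl22, which also binds Ccr4 and had 5 counts over all luminal and 6 over all basal libraries. Of this group of 3 neighbours, 2 were therefore called higher in basal cells, as were 31.2% of all genes tested, and 1 was not tested.

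Cxcl15 (Entrez 20309, chr5:90794534-90803067), known as lungkine and described as a neutrophil attractant of airway and other mucosal epithelia, was the main ligand transcript of luminal cells. Luminal libraries held 318, 132, 185, 315 and 440.1 CPM. Basal libraries held 0, 0.273, 0.464, 0 and 0 CPM, which are 0, 4, 6, 0 and 0 counts. Luminal libraries had 2514 to 6936 counts each, whereas 3 of 5 basal libraries had none. Cxcl15 had a log2 fold change of 10.95 ± 0.60 (SE, adjusted p = 1.84e-09), from means of 278 ± 122 CPM in luminal and 0.147 ± 0.213 CPM in basal cells (SD, n = 5 each). It was the 10th largest change towards luminal cells among 14609 genes. Its size rests on the 10 basal counts and became 11.93 without basal replicate 3 and 11.55 in limma voom. Cxcl15 made up 46.7% ± 10.1 of the summed ligand CPM in luminal libraries (SD, n = 5).

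Cxcl17 (Entrez 232983, chr7:25400053-25412886), a chemokine of mucosal surfaces, had the second largest difference towards luminal cells among the ligands tested. Luminal libraries held 26.7, 20.8, 42.6, 24.7 and 26.5 CPM, and basal libraries 0.374, 0.341, 0.464, 0.438 and 0 CPM. The values within luminal libraries were close together apart from the higher replicate 3, and all basal values were below 0.5 CPM. This gave a log2 fold change of 6.44 ± 0.41 (SE, adjusted p = 7.81e-09), from means of 28.2 ± 8.36 CPM in luminal and 0.323 ± 0.187 CPM in basal cells (SD, n = 5 each), or 87.0-fold.

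**Figure D2:**
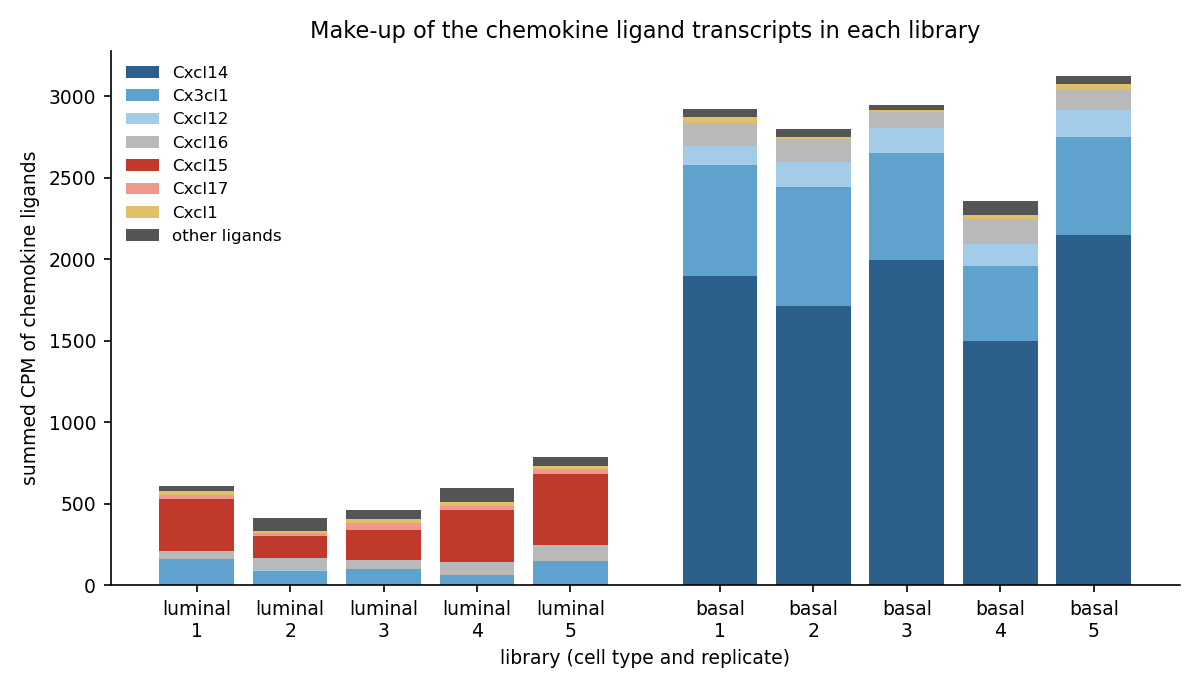
Summed CPM of all 40 chemokine ligands in each library (stacked bars, from 0), split into the 7 ligands with the highest levels and the rest. The bars of basal libraries reach 2356 to 3122 CPM and are mostly Cxcl14, and those of luminal libraries reach 410.4 to 786 CPM with Cxcl15 as the largest block in all 5.

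The summed ligand level was 572 ± 146 CPM in luminal and 2829.7 ± 289 CPM in basal libraries (SD, n = 5 each), without overlap. Without Cxcl14 the sums were 569 ± 145 and 979 ± 85.0 CPM, still without overlap, at 409 to 779 CPM in luminal and 859 to 1088 CPM in basal libraries. That remaining difference rests on Cx3cl1, whose means of 109 CPM in luminal and 626 CPM in basal libraries lie further apart than these sums. The other ligands together were therefore not higher in basal cells on average. To compare levels between genes, CPM was divided by exon length (CPM per kb). This length joins the exons of all annotated transcripts of a gene, so a gene that mostly makes a shorter transcript is set too low. On that scale Cxcl15 led in luminal cells at 131 ± 57.2 CPM per kb, with a range that lay above that of the next ligand. Cxcl17 (37.1 ± 11.0), Cx3cl1 (27.7 ± 10.1) and Cxcl16 (23.4 ± 5.88 CPM per kb) followed with overlapping ranges, and all Cxcl16 values were above those of Cxcl1 (11.3 ± 3.08 CPM per kb). In basal cells Cxcl14 (1013 ± 139), Cx3cl1 (159 ± 26.3) and Cxcl16 (44.0 ± 7.49 CPM per kb) were each apart from the next, and Cxcl12 (17.5 ± 2.52) overlapped with Cxcl1 (13.1 ± 7.55 CPM per kb). Cxcl12 thus ranked below Cxcl16 per kb although its mean CPM was higher, since its joined exons span 8176 bases against 3021. Which transcripts of Cxcl12 and Cxcl16 were made was not tested, so this order depends on the lengths used. In CPM the basal ranges of these genes overlapped, at 112 to 165 for Cxcl12 and 101 to 155 for Cxcl16. From the fifth place downwards the ranges of neighbours in the order overlapped in both cell types.

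The neutrophil-attracting ligands that act on Cxcr2 form a cluster with Cxcl15 on chromosome 5, at chr5:90759298-90905938, which holds Cxcl5, Cxcl3, Cxcl15, Cxcl1 and Cxcl2 within 147 kb. The main test called 2 of these neighbours (Cxcl15 and Cxcl5) higher in luminal and none higher in basal cells, where 33.6% and 31.2% of all genes were so called, did not call 2 (Cxcl1 and Cxcl2) and left 1 (Cxcl3) untested. Cxcl5 was at 1.25, 11.5, 4.48, 12.7 and 2.16 CPM in luminal libraries and at 0.437, 0.682, 0.774, 2.75 and 0.480 CPM in basal libraries. Luminal libraries 2 and 4 were high, and basal library 4 exceeded luminal libraries 1 and 5. Its log2 fold change came to 2.63 ± 0.68 (SE, adjusted p = 0.00372), and it became 3.42 without basal replicate 4, with the fold 1.73 times as large. Cxcl1 was at 19.1, 13.8, 25, 28.7 and 19.5 CPM in luminal libraries and at 35.1, 9.69, 13.1, 22.6 and 42.8 CPM in basal libraries. The basal values of Cxcl1 spread to both sides of the luminal values. Its log2 fold change was -0.22 with a 95% interval of -0.96 to 0.52 (adjusted p = 0.598), which leaves differences of up to about that size in either direction. Cxcl2 was at 5.89 ± 4.33 CPM in luminal and 5.35 ± 3.67 CPM in basal cells (SD, n = 5 each), with a log2 fold change of 0.12 and an interval of -1.13 to 1.38 (adjusted p = 0.868). Cxcl3 was too low to pass the filter. It was at 0.375, 1.11, 1.47, 1.76 and 0.634 CPM in luminal libraries and at 0.187, 0, 0.155, 0.250 and 0.120 CPM in basal libraries, with every luminal library above every basal library.

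The promoters of Cxcl1, Cxcl2 and Cxcl3 are known to bind NF-kB, and these were 3 of only 5 ligands whose windows matched the kappaB motif (GGG, 2 bases of any kind, then TTTCC, on either strand), the others being Ccl20 and Ccl9. Among all promoters, 1.63% held this motif. The matches and 10 bases on each side are shown 5′ to 3′ on the gene's strand because they mark what the promoters share, and capitals give the match.
Cxcl1, 89 bases before the start site: ccggttgcagGGAAACACCCtgtactccgg
Cxcl1, 71 bases before the start site: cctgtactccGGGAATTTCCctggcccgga
Cxcl2, 97 bases before the start site: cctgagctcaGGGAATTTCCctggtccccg
Cxcl2, 78 bases before the start site: cctggtccccGGGCTTTTCCagacatcgtg
Cxcl3, 73 bases before the start site: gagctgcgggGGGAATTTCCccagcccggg
The same 10 letters stood once in each of the windows of Cxcl1, Cxcl2 and Cxcl3. The Cxcl15 window held no match, and no window was given for Cxcl5. For the other motifs searched on both strands, 10 of 28 ligands with a window held a TATA box and 7 a GC box. The AP-1 motif TGANTCA, found in 7.81% of all promoters, was held by 6. The interferon-stimulated response element (a pair of GAAA runs, 2 bases apart, found in 3.44%) was held by 3. A ligand with several windows was counted once if any of them matched.

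Cxcl10 (Entrez 15945, chr5:92346638-92348889), the interferon-inducible ligand of Cxcr3 on T cells, was at 1.31, 8.37, 3.07, 6.26 and 4.57 CPM in luminal libraries and at 9.98, 9.96, 7.51, 31.6 and 7.91 CPM in basal libraries. Basal replicate 4 stood far above the other basal libraries, and luminal replicate 2 was above basal replicates 3 and 5. Cxcl10 was called with a log2 fold change of -1.5 ± 0.48 (SE, adjusted p = 0.0138), and without basal replicate 4 it was -0.91 (adjusted p = 0.0608) and no longer called, with the fold 1.5 times smaller. The exons of Cxcl10 share 133 bases with Art3 on the opposite strand. Its neighbours at chr5:92321331-92363296, Cxcl9 and Cxcl11, which also bind Cxcr3, were not tested, with means of at most 0.281 and 0.207 CPM in a cell type. RefSeq annotates Cxcl11 as a transcribed pseudogene in this strain's assembly. The Cxcl10 window held both an interferon-stimulated response element, 213 bases before the start site, and an AP-1 motif, 74 bases before it.

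**Figure D3:**
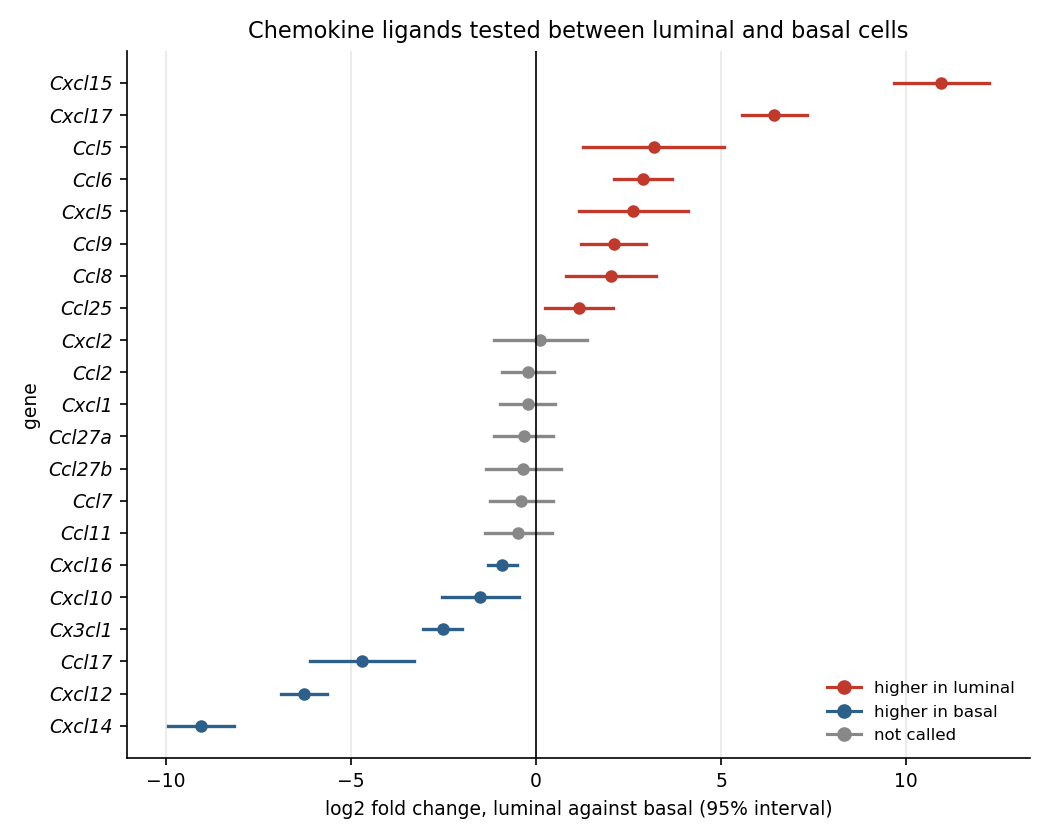
Log2 fold change (luminal against basal) and its 95% interval for the 21 chemokine ligands tested. Red marks the 8 called higher in luminal, blue the 6 called higher in basal and grey the 7 not called. The differences run from 10.95 for Cxcl15 to -9.05 for Cxcl14.

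CC ligands were low in both cell types. Of 11 tested, 5 were called towards luminal and 1 towards basal cells, so 54.5% were called in either direction, against 64.8% of all genes (33.6% towards luminal and 31.2% towards basal cells). Ccl5, Ccl6 and Ccl9, ligands that share the receptor Ccr1, lie within a cluster of 5 genes at chr11:83525778-83664683, of which these 3 were called higher in luminal cells and Ccl3 and Ccl4 were not tested. Ccl6 ran from 4.0 to 5.43 CPM in luminal and from 0.387 to 1.12 CPM in basal libraries, without overlap, with a log2 fold change of 2.89 ± 0.36 (SE, adjusted p = 8.43e-06). Ccl9 ran from 1.91 to 6.69 CPM in luminal and from 0.619 to 1.36 CPM in basal libraries, without overlap, with a log2 fold change of 2.10 ± 0.41 (SE, adjusted p = 0.000439). The groups overlapped for Ccl5. It held 0.0625 CPM in luminal replicate 1 and 1.41 to 3.89 CPM in the other luminal libraries, against 0.813 CPM in basal replicate 4 and 0 to 0.232 CPM in the other basal libraries. Its log2 fold change of 3.18 ± 0.89 (SE, adjusted p = 0.006) became 4.27 without basal replicate 4, with the fold 2.12 times as large, and limma voom did not call it (adjusted p = 0.0586). In the cluster of 6 CC genes at chr11:82035577-82179812, Ccl8 was called higher in luminal cells, with a log2 fold change of 2.03 ± 0.57 (SE, adjusted p = 0.00619), although luminal replicate 5 (0.381 CPM) was below every basal library.

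The other members of that chromosome 11 cluster include the monocyte attractants Ccl2 and Ccl7, which bind Ccr2, and the eosinophil attractant Ccl11, a ligand of Ccr3. Ccl2 was at 4.6 ± 1.96 CPM in luminal and 5.34 ± 1.55 CPM in basal cells (SD, n = 5 each). Ccl7 and Ccl11 were lower, at 2.12 and 2.80 CPM and at 1.03 and 1.43 CPM (means, luminal and basal). None of the 3 was called, and the 95% intervals of their log2 fold changes were -0.91 to 0.48 for Ccl2, -1.25 to 0.47 for Ccl7 and -1.37 to 0.42 for Ccl11. Ccl12 and Ccl1, the remaining genes of the cluster, were not tested.

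Ccl25 (Entrez 20300, chr8:4325205-4360020), the ligand of Ccr9 that guides lymphocytes to gut and thymus, was at 4.38, 6.64, 9.88, 8.32 and 5.90 CPM in luminal libraries and at 5.36, 3.48, 3.56, 0.563 and 2.58 CPM in basal libraries. Basal replicate 1 lay above luminal replicate 1, and basal replicate 4 was the lowest. Ccl25 was called with a log2 fold change of 1.17 ± 0.43 (SE, adjusted p = 0.0265), and it was not called without luminal replicate 3 (1.00, adjusted p = 0.0762) or without basal replicate 5 (1.11, adjusted p = 0.0621). Its exons share 204 bases with Elavl1 on the opposite strand. Ccl27a and Ccl27b, near-identical copies of the Ccr10 ligand of skin between which the counting could split reads, were not called. Ccl27a was at 6.81 ± 3.27 CPM in luminal and 8.53 ± 3.26 CPM in basal cells, with an interval of -1.13 to 0.47. Ccl27b was at 2.96 ± 1.52 and 3.75 ± 2.87 CPM, with an interval of -1.36 to 0.66 (SD, n = 5 each; 95% intervals of the log2 fold change).

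The 18 ligands detected but not tested had means below 1 CPM in both cell types, apart from Cxcl3. They include the lymphoid ligands Ccl19, Ccl21a to Ccl21d and Cxcl13, the dendritic cell product Ccl22, and Ccl3, Ccl4, Ccl20, Ccl24, Ccl26 and Ccl28. The copies of Ccl21 cannot be told apart with certainty, and each copy was given at most 7 counts, and all 4 together at most 17, over the 5 libraries of a cell type. Without the filter on low counts, edgeR called 4 of the 18 higher in luminal cells (Cxcl3, log2 fold change 2.77, adjusted p = 0.00611; Ccl12, 2.26, adjusted p = 0.0381; Ccl20, adjusted p = 0.0216; Ccl4, adjusted p = 0.0325) and 1, Ccl1, higher in basal cells. In that fit 24.1% of 20612 genes were called towards luminal and 24.7% towards basal cells. Over all 5 libraries of a cell type, Ccl20 had 26 luminal and 1 basal count, Ccl4 22 and 1, and Ccl1 0 and 9, so no fold is given for them.

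**Figure D4:**
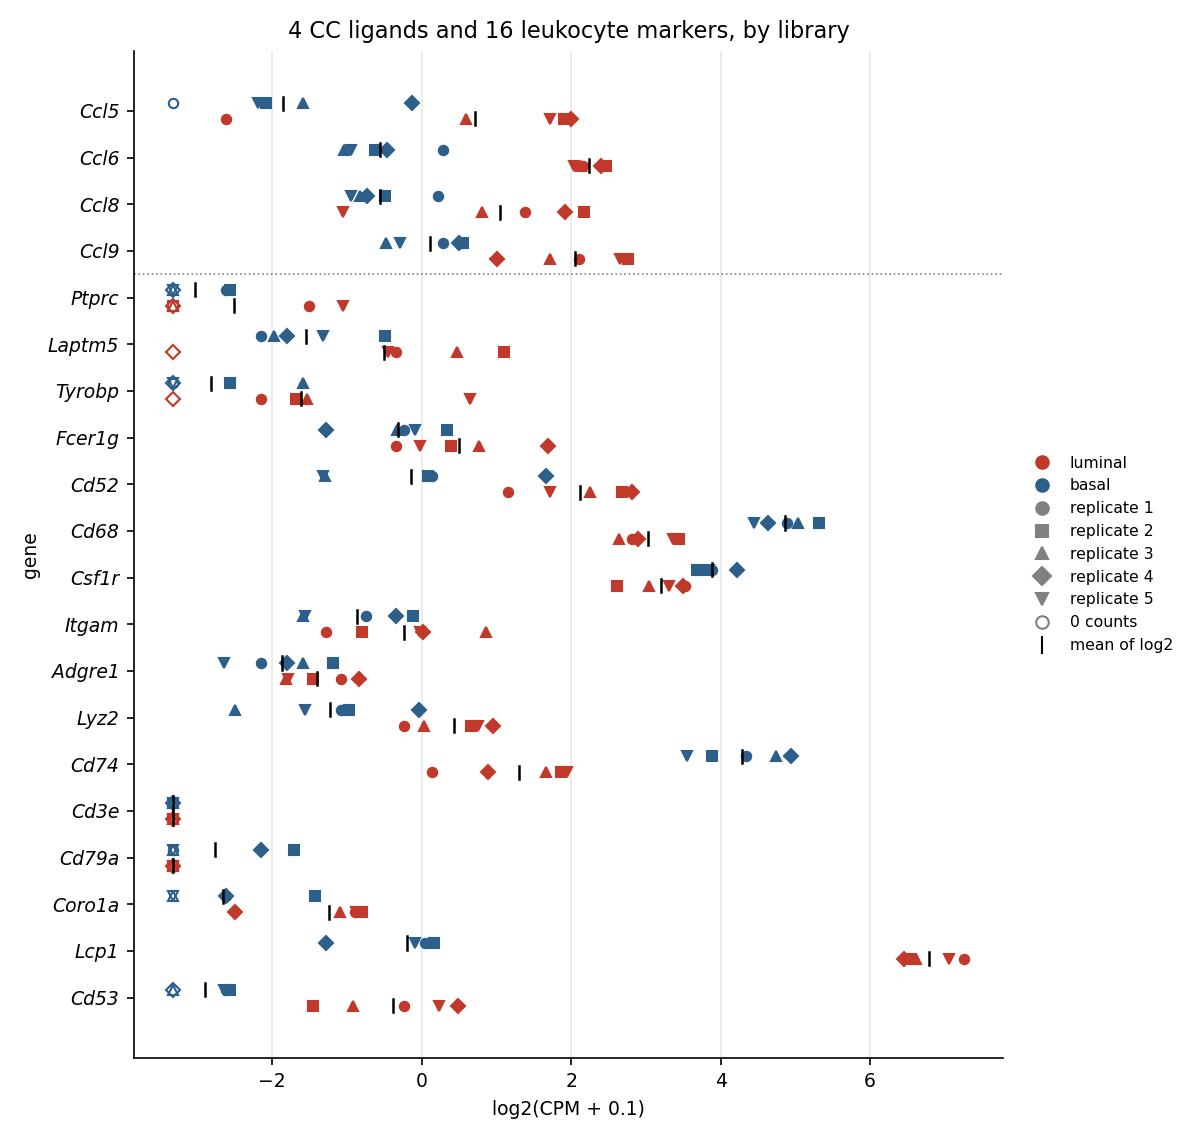
Levels of the 4 CC ligands Ccl5, Ccl6, Ccl8 and Ccl9 (above the dotted line) and of 16 leukocyte markers (below it), as log2(CPM + 0.1), by library. Marker shape gives the replicate, an open marker 0 counts and the bar the mean of the log2 values. Lcp1 is far higher in luminal libraries, Cd68 and Cd74 are higher in basal libraries, and Cd3e is at 0 throughout.

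Leukocytes are a known source of Ccl5, Ccl6, Ccl8 and Ccl9, so markers of leukocytes, the cells that the CD45 stain of the sorting methods would remove, were set beside them. The summed level of these 4 ligands was 10.6 to 20.2 CPM in luminal and 1.68 to 3.31 CPM in basal libraries. Of 16 leukocyte markers 7 were tested, 3 called higher in luminal (Lcp1, Cd52 and Lyz2) and 3 in basal cells (Cd68, Cd74 and Csf1r), or 85.7% against 64.8% of all genes, and their sum was 123 to 178 CPM in luminal and 50.5 to 79.5 CPM in basal libraries. Most of the luminal sum was Lcp1, at 113 ± 28.2 CPM in luminal and 0.823 ± 0.295 CPM in basal cells (SD, n = 5 each), and without it, a choice made after seeing the values, the order turned, with 25.9 to 35.0 CPM in luminal and 49.7 to 79.2 CPM in basal libraries. The pan-leukocyte marker Ptprc was at 0.126 CPM in luminal and 0.0261 CPM in basal cells on average, at 0 in 3 libraries of each, Cd3e of T cells was at 0 in all 10 libraries and Cd79a of B cells at 0 in all luminal libraries. The part of leukocyte RNA in the CC ligand levels was not tested.

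Ligands varied more among libraries of a cell type than most genes did. In luminal libraries, where 20 of the ligands tested had a mean of at least 1 CPM, their median coefficient of variation was 44.6%, against 23.2% over 13585 tested genes above that limit, and 19 of 20 were above the latter value. In basal libraries 16 ligands had a median of 38.6%, against 18.8% over 13550 genes, with 12 above. Cxcl5 was the most variable in both cell types (83.1% and 95.2%), Ccl6 the least in luminal (13.2%) and Cxcl14 the least in basal libraries (13.7%). Most of these ligands ranked low by level, and the medians were not matched for level. Luminal replicate 1 was the lowest luminal library for 11 of the 21 ligands tested, and basal replicate 4 the highest basal library for 9.

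Chemokine receptors and the ligands' processing were examined next, since a ligand acts only where its receptor is. Of 23 receptors 7 were tested, 2 called higher in luminal (Ccrl2 and Cxcr4) and 3 higher in basal cells (Cx3cr1, Ackr3 and Ackr4), 2 were not called (Ccr9 and Cxcr5), and 3 (Ccr8, Cxcr1 and Cxcr3) had no counts. The 5 called are 71.4% of the receptors tested, near the 64.8% of all genes. The other 13 had means below 0.5 CPM in both cell types, among them Cxcr2, the receptor of the Cxcl1 group, with 1 count in all, and Cxcr6, the receptor of Cxcl16, at 0.254 CPM in luminal and 0.144 CPM in basal cells.

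Cx3cr1 (chr9:120048683-120068296), the receptor of Cx3cl1, was at 90.3, 118, 110.0, 108 and 115 CPM in luminal libraries and at 625, 416, 323, 289 and 462 CPM in basal libraries. Like its ligand it was higher in every basal library, with a log2 fold change of -1.97 ± 0.20 (SE, adjusted p = 9.38e-07), or 3.91-fold. Cx3cr1 is best known from macrophages and microglia, whose marker Csf1r was at 9.32 CPM in luminal and 14.8 CPM in basal cells and Adgre1 at 0.294 and 0.189 CPM on average. Macrophages carry CD45 and would also be removed by the lineage stain of the sorting methods, and the part of such cells was not tested.

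The receptors of Cxcl12 differed in direction. Ackr3 (chr1:90203980-90215724), the atypical receptor that clears Cxcl12, was at 28.0, 9.80, 10.1, 12.9 and 25.6 CPM in luminal libraries and at 51.9, 72.2, 59.3, 71.5 and 55.7 CPM in basal libraries. It was higher in basal cells without overlap, with a log2 fold change of -1.85 ± 0.29 (SE, adjusted p = 5.88e-05). The signalling receptor Cxcr4 (chr1:128588199-128592299) was at 27.1, 97.2, 93.4, 42.4 and 35.5 CPM in luminal libraries and at 45.4, 19.6, 23.8, 21.3 and 38.8 CPM in basal libraries. Luminal replicates 2 and 3 were high and the remaining values overlapped. Its log2 fold change of 0.99 ± 0.36 (SE, adjusted p = 0.0253) was not called without luminal replicate 2 or 3, or without basal replicate 2, 3 or 4 (0.74 to 0.92, adjusted p from 0.0596 to 0.0886), nor with the replicate number as a block (0.88, adjusted p = 0.091).

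Ackr4 (chr9:104097682-104126643), the atypical receptor that clears Ccl19, Ccl21 and Ccl25, was at 6.19, 3.21, 5.83, 3.13 and 7.93 CPM in luminal libraries and at 14.9, 30.1, 35.0, 26.6 and 16.1 CPM in basal libraries. All basal values were above all luminal values, with a log2 fold change of -2.22 ± 0.31 (SE, adjusted p = 2.43e-05), and 479 bases of its exons are shared with Acad11 on the opposite strand. Ccrl2 (chr9:111054834-111057518), a non-signalling receptor that presents chemerin, was at 44.0, 17.3, 18, 26.7 and 44.0 CPM in luminal libraries and at 8.11, 8.80, 9.90, 6.56 and 9.29 CPM in basal libraries. Here luminal libraries were higher without overlap, with a log2 fold change of 1.81 ± 0.28 (SE, adjusted p = 4.92e-05).

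Ccr9, the receptor of Ccl25, was at 182 ± 17.2 CPM in luminal and 153 ± 12.6 CPM in basal cells (SD, n = 5 each) and was not called (log2 fold change 0.26, 95% interval -0.0048 to 0.52, adjusted p = 0.0789). It was called under upper-quartile scaling (adjusted p = 0.0119) and with library totals only (adjusted p = 0.00509), and its exons share 269 bases with Gm17200 on the same strand, and 1932 with AC165425.1 and 22 with Slc6a20a on the opposite strand. Cxcr5, the receptor of Cxcl13, was at 3.26 ± 1.95 and 2.63 ± 1.41 CPM and was not called, with an interval of -0.66 to 1.26. Its exons share 110 bases with Bcl9l on the opposite strand.

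**Figure D5:**
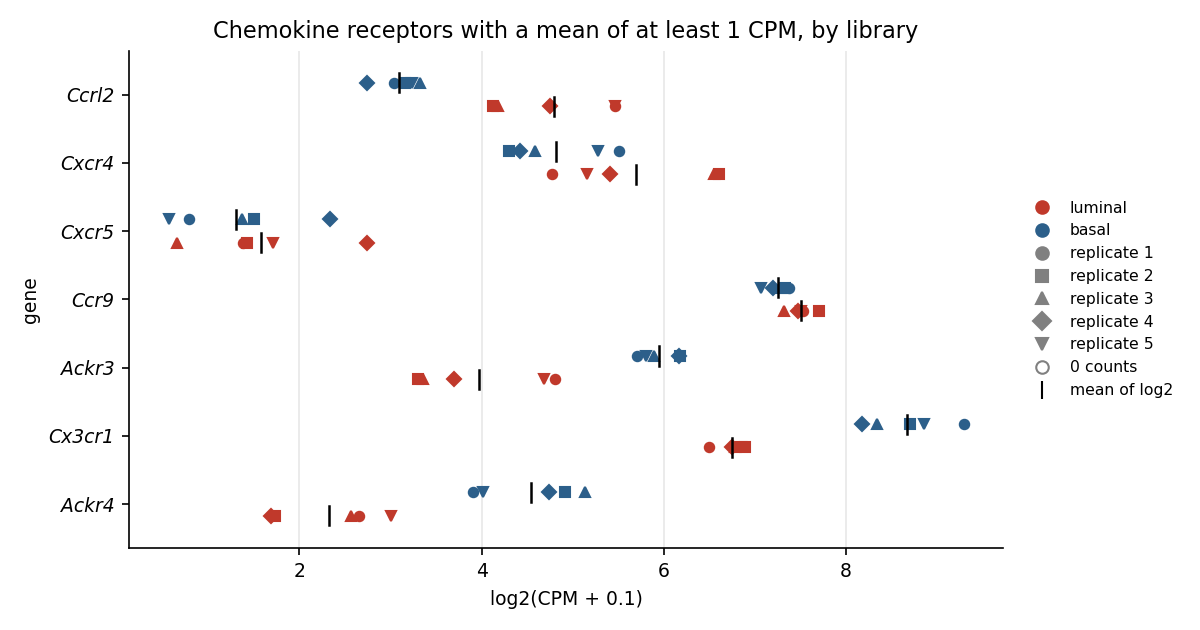
Levels of the 7 chemokine receptors with a mean of at least 1 CPM, as log2(CPM + 0.1), in 5 luminal (red) and 5 basal (blue) libraries. Marker shape gives the replicate and the bar the mean of the log2 values. Ccrl2 is higher in all luminal libraries and Ackr3, Cx3cr1 and Ackr4 in all basal libraries, whereas the values of Cxcr4, Cxcr5 and Ccr9 overlap.

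Of 12 genes that release, trim or retain chemokines, 10 were tested, with 3 called towards luminal and 5 towards basal cells (80%, against 64.8% of all genes). Adam10, the sheddase of Cx3cl1 and Cxcl16, went against its basal-high substrates. It was at 506 ± 41.1 CPM in luminal and 63.6 ± 12.8 CPM in basal cells (SD, n = 5 each), a log2 fold change of 2.99 ± 0.16 (SE, adjusted p = 1.77e-09). Mmp2, a protease known to cleave Cxcl12, was higher in basal cells by a log2 fold change of -4.28 ± 0.38 (SE, adjusted p = 2.11e-07; means of 4.55 and 89.5 CPM, luminal and basal). Hs3st1, which modifies heparan sulfate, the polymer on which chemokines are held, was also higher in basal cells, at -2.38 ± 0.24 (SE, adjusted p = 1e-06; means of 3.59 and 18.9 CPM).

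All 25 genes of NF-kB signalling and of its inputs were tested, and 8 were called towards luminal and 10 towards basal cells. These are 72% of the list, near the 64.8% of all genes. Cd14, the co-receptor for lipopolysaccharide, was at 935 ± 699.9 CPM in luminal and 2.58 ± 1.09 CPM in basal cells (SD, n = 5 each), a log2 fold change of 8.51 ± 0.56 (SE, adjusted p = 1.21e-08). The cytokine receptors Tnfrsf1b (2.96 ± 0.26, adjusted p = 1.95e-07) and Il1r1 (2.29 ± 0.29, adjusted p = 1.02e-05) were higher in luminal cells too (log2 fold change ± SE). Of 13 genes of interferon signalling, all tested, 7 were called towards luminal and 2 towards basal cells, which is 69.2% and again near the 64.8% of all genes. The leading ones were the transcription factor Irf1 (log2 fold change 2.15 ± 0.22, adjusted p = 9.65e-07) and the kinases Jak2 (1.39 ± 0.12, adjusted p = 2.2e-07) and Tyk2 (0.69 ± 0.26, adjusted p = 0.0278, SE). Tyk2 was not called without luminal replicate 2 or 3 or basal replicate 1, 3 or 4 (adjusted p from 0.0521 to 0.0845).

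Genes that tissue dissociation is known to induce also moved with cell type. All 12 were called, where 64.8% of all genes were, 10 higher in basal cells (such as Jun, Ier3 and Dusp1) and 2 higher in luminal cells (Hspa1a and Hspa1b), and their sum was 5055 to 6858 CPM in luminal and 5480.4 to 10205 CPM in basal libraries. Their part in the ligand levels was not tested.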

How the data were processed

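Bulk RNA-seq libraries of sorted mammary cells of wild-type C57BL/6J mice were used, 5 luminal and 5 basal. The authors deposited raw counts per gene as whole numbers, 1 column per library, without normalization. Per the submitters' processing notes, the tools were cutadapt 4.2 and Bowtie2 2.3.5.1. The study's methods name poly(A) selection, cutadapt for the adapters, and mm10 as the genome that another version of Bowtie2 aligned reads to. The study describes fewer replicates than are present here, and these steps were assumed to apply to the libraries used. How reads were counted (tool, annotation, strand, reads with several matches) is not given in the sources used here. Bowtie2 does not align across splice junctions, which can lower genes with many short exons, and values of near-identical copies are uncertain.

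Entrez identifiers were matched to symbols in a RefSeq gene table of GRCm38.p6 (24570 of 24594 genes), from which positions and promoter sequences were taken. Exon lengths, joined over all transcripts of a gene, and overlaps are from GENCODE M21. Coordinates of Ccl19 and the Ccl21 copies are not given. Protein sequences were not used here. Groups follow the cell type label and replicate numbers the titles. Nothing in the labels says that libraries came from separate animals, so p-values measure the spread between these libraries. No pair of libraries of the same cell type agreed within sampling noise (lowest chi-square per degree of freedom 15.4).

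Genes were filtered with filterByExpr of edgeR 4.0.16 (minimum count 10, minimum total 15; 14609 tested, 9985 dropped) and scaled with TMM. edgeR's quasi-likelihood test (R 4.3.3, two-sided, cell type as the only term) was followed by Benjamini-Hochberg adjustment across the 14609 genes. Members, lists and rules were chosen with earlier results of these data known. Ligands and receptors with a mean of at least 1 CPM in a cell type are described with their own values, and with the value of every library where also called at a mean of at least 5 CPM. Cxcl1 and Cxcl3, shown by library as well, and the genes named of the marker lists were chosen after their values were seen. From the lists of processing, NF-kB and interferon genes, the 3 largest called changes with a mean of at least 10 CPM are named. Alternatives were DESeq2 size factors, upper-quartile factors or library totals, no filter, at least 10 counts in every library, DESeq2 1.42.0, limma 3.58.1 voom, the replicate number as a block and leaving out each library.

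On simulated data with the means and totals of the real libraries the test was checked. For luminal against basal with 14609 genes, edgeR recovered 90% of 100 genes changed 4-fold and 53% of 100 genes changed 2-fold, with 4 false calls.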

Additional observations from a re-analysis of the deposited data

Results flagged for a closer look

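In all, 88 groups of 5 libraries were examined, which are the 21 ligands tested, 7 receptors, 9 named genes of the processing, NF-kB and interferon lists and 7 summed lists, in each cell type. Of these groups, 6 had a library whose gap to its nearest neighbour took up most of the group's range. For independent values with a normal distribution, chance gives about 1 in 20, or 4.4. These values were CPM, some from few counts, and genes of the same library are not independent, so 4.4 is only a rough guide. Basal replicate 4 accounted for 4 of the 6 groups. It held 8.88 CPM of Ccl27b against 2.28 to 2.66 CPM in the other basal libraries, 31.6 CPM of Cxcl10 against 7.51 to 9.98 CPM, 2.75 CPM of Cxcl5 against 0.437 to 0.774 CPM and 0.813 CPM of Ccl5 against 0 to 0.232 CPM. Luminal replicate 3 held 42.6 CPM of Cxcl17, where the remaining luminal libraries had 20.8 to 26.7 CPM. Basal replicate 5 held 0 CPM of Cxcl17 against 0.341 to 0.464 CPM in the other basal libraries. Without basal replicate 4, the call of Cxcl10 was lost, as given above, and those of Ccl5 and Cxcl5 were kept with larger differences.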

How the results depend on the processing

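The count of ligands higher in luminal cells (8) ran from 7 to 12 under all alternatives but 1. It was 0 when at least 10 counts were required in every library, since that filter removed all 8. Each had fewer than 10 counts in a basal library, and Ccl5 and Ccl8 in a luminal library too. The count higher in basal cells (6) ran from 5 to 7, and leaving out a library gave 7 to 10 and 5 to 6. Of receptors, 2 were higher in luminal cells (1 to 3, and 1 to 2 when a library was left out) and 3 in basal cells (3 to 4, and 3). With the replicate number as a block, the former count was 1, because Cxcr4 was no longer called (0.88, adjusted p = 0.091), and no other call of a ligand or receptor changed. The descriptions of same-numbered luminal and basal libraries also share a leading identifier, and the labels do not say what the number or the identifier stands for, so whether they mark 1 animal is unknown. Same-numbered libraries deviated together only weakly (correlations of -0.10, 0.10, -0.04, 0.17 and 0.06), and 2 of 5 luminal libraries correlated best with their own number.

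Of 656 alternative values of 37 genes, 633 left direction and call as they were, 15 of 5 genes (Ccl25, Ccl5, Cxcl10, Cxcr4 and Tyk2) lost the call and 2 of Ccr9 gained it. The remaining 6, all of genes not called, changed sign when a library was left out. Leaving out each in turn gave -0.58 to 0.25 for Ccl27b (positive without basal replicate 4), -0.44 to 0.0798 for Cxcl1 (positive without basal replicate 5), -0.38 to 0.38 for Cxcl2 (negative without luminal replicate 4 and, at -0.0924 and -0.138, without basal replicates 2 and 3) and -0.11 to 0.65 for Cxcr5 (negative without luminal replicate 4). The cause was not tested. Library totals and upper-quartile factors moved the median log2 fold change of all genes by 0.19 and 0.12. The 19 untested ligands had too few counts to pass the filter. The sizes of the Cxcl15, Cxcl17, Ccl17 and Ccl5 differences rest on few counts in the lower cell type. Their directions held in each alternative that tested them.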

Other observations

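The symbol rule leaves out ligands with older names. Of Pf4, Mif and Ppbp, 2 were tested. Pf4, the platelet and megakaryocyte chemokine also made by macrophages, was higher in luminal cells (2.27 ± 1.22 CPM against 0.356 ± 0.414 CPM, SD, n = 5 each, log2 fold change 2.69 ± 0.79, SE, adjusted p = 0.00817). Mif, an atypical ligand of Cxcr2 and Cxcr4, was higher in basal cells (234 ± 56.6 CPM against 471 ± 102 CPM in basal cells, SD, n = 5 each, log2 fold change -1.01 ± 0.19, SE, adjusted p = 0.000358).

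Luminal and basal replicate 4 shared several of their highest ligands, and basal replicate 4 was the highest basal library for 9 ligands. Luminal replicate 4 was the highest luminal library for 6 of the 21 ligands tested, and 5 of these (Ccl27a, Ccl27b, Ccl5, Cxcl2 and Cxcl5) were also highest in basal replicate 4 among basal libraries. For the other numbers the shared count was 0 to 2. This was seen in the data and not tested.

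Other cell markers were mixed. Of 10 endothelial markers 7 were tested, with 2 called towards luminal and 3 towards basal cells (71.4%, against 64.8% of all genes) and sums of 35.6 to 51.7 CPM in luminal and 21.0 to 33.0 CPM in basal libraries. The sorting methods list a CD31 stain that would remove endothelial cells. Of 6 lymphatic markers 4 were tested, 1 called towards luminal and 2 towards basal cells (75%; sums of 7.71 to 13.3 CPM and 104 to 119 CPM, mostly Pdpn in basal cells). Of 6 adipocyte markers 1 was tested and called higher in basal cells (sums of 0.611 to 2.26 CPM and 3.95 to 8.88 CPM). Their part in the ligand levels was not tested.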
